A study of Mus musculus with 6 samples.

Results

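Genes for the proteins of the mitochondrial ribosome were examined in mouse hippocampus. They were all rows of the expression table whose symbol is Mrpl or Mrps followed by a number and at most 1 letter, which leaves out names marked as pseudogenes. This rule gave 78 of the 55414 genes in the table, 49 named for the large subunit (Mrpl) and 29 for the small subunit (Mrps). RNA had been sequenced in 6 hippocampus libraries, 3 from mice treated with CerM and 3 from mice treated with vehicle. Strain, age, sex, dose and duration are not in the labels, and CerM is not explained there. The series title links ceramides from gut bacteria to mitochondria and to depression induced by corticosterone. The titles call the samples biological replicates but do not tie them to single animals, so a p-value here reflects the spread between libraries, which may be technical.

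Mitochondria carry a ribosome of their own, which translates only the few mRNAs of mitochondrial DNA into subunits of the respiratory chain and of ATP synthase. Its RNA comes from mitochondrial DNA, while all of its proteins are encoded in the nucleus, made in the cytosol and imported. The large subunit joins amino acids into protein, and the small subunit binds and decodes the mRNA. Some of the proteins descend from bacterial ribosomal proteins and others were added during the evolution of mitochondria. A symbol does not always match the place in the particle: Mrps30 and Mrps18a sit in the large subunit, and Mrps36 is a component of the 2-oxoglutarate dehydrogenase complex of the citric acid cycle.

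Promoter sequences from RefSeq (build GRCm38.p6) were at hand for 69 of the 78 members, from 250 bases before to 50 bases after each transcription start. They are shown because nuclear factors NRF1, YY1 and members of the ETS family (such as GABPA) are textbook regulators of genes for mitochondrial proteins. The 4 large subunit members with the smallest p between the treatments are given by their last 100 bases before the start, 5′ to 3′ on the gene's own strand. Capitals mark matches on either strand to the ETS core CCGGAAG or the NRF1 core GCGCATGC.
Mrpl33, chr5:31613851-31613950, plus strand: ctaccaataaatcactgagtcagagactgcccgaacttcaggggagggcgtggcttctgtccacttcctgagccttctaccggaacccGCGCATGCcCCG
Mrpl32, chr13:14613038-14613137, minus strand: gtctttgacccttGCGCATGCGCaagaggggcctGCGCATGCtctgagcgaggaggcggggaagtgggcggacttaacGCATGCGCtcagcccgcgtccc
Mrpl43, chr19:45006443-45006542, minus strand: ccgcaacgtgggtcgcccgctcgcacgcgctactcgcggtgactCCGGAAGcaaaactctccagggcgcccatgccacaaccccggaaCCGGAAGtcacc
Mrpl17, chr7:105811088-105811187, minus strand: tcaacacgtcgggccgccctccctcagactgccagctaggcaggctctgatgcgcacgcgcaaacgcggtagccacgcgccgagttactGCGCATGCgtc

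In Mrpl33 the NRF1 core began 12 bases before the start, and an ETS core began at its last 3 bases and ran into the transcript. Mrpl32 held 4 NRF1 matches, of which the first 2 in the line overlap, one on each strand. Mrpl43 held 2 ETS cores, 56 and 12 bases before the start. Mrpl17 had an NRF1 core 11 bases before the start and an ETS core further upstream, outside the stretch shown. Among small subunit members, Mrps36 had the smallest p between the treatments and held neither core in its window. Mrps21, next in p, held only an ETS core that began at base 19 of the transcript.

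Over the full windows, the ETS core was present in 26 of the 69 members (37.7%), against 18.5% of the 11085 tested genes with a promoter and 9.93% of all 27025 genes in the promoter table. The NRF1 core was present in 8 members (11.6%), against 5.65% of tested genes and 3.05% of all genes. The YY1 core AAGATGG was present in 13 members (18.8%), against 8.13% and 7.28%. By subunit, the ETS core stood in 15 of 43 large and 11 of 26 small subunit members, the NRF1 core in 7 and 1, and the YY1 core in 7 and 6. A gene was counted once if any of its windows held the core on either strand, and cores may overlap. These are matches of letters, not measured binding sites. The median log2 fold change between the treatments was −0.17 for members with an ETS core and −0.13 for members with a promoter but no ETS core, −0.21 and −0.15 for the NRF1 core, and −0.15 and −0.14 for the YY1 core. Below 0 lay 25 of 26 members with and 38 of 43 without an ETS core, 6 of 8 with and 57 of 61 without an NRF1 core, and 12 of 13 with and 51 of 56 without a YY1 core.

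All 78 members averaged 1 TPM or more and entered the test. TPM is a level scaled for transcript length and for the library total. The mean level ran from 7.29 TPM for Mrpl1 to 249 TPM for Mrps21, with a median of 54.2 TPM in the large and 45.8 TPM in the small subunit. Levels of mRNA thus differed widely among proteins that are mostly present once per ribosome.

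Mrps21, whose protein is the counterpart of bacterial S21, stood alone at the top. It had 217, 227 and 229 TPM in CerM libraries 1 to 3, against 272, 255 and 294 TPM in vehicle libraries 1 to 3. Its lowest value was above the highest value of every other member. Behind it came Mrpl42, a protein that bacteria lack, at a mean of 166 TPM, Mrpl20 at 158 TPM, Mrpl30 at 148 TPM and Mrps33 at 147 TPM, and the ranges of these 4 over the libraries overlapped. The lowest members were Mrpl1, which belongs to the mobile arm at the site where tRNA leaves, Mrps30 at 9.37 TPM and Mrpl23 at 15.1 TPM. Mrpl1 had 7.26, 6.44 and 7.07 TPM in CerM and 7.93, 8.87 and 6.20 TPM in vehicle, a range that met that of Mrps30. The level of Mrpl23 is uncertain for a reason given with its values below.

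Most mitochondrial ribosomal protein genes had a lower mean level in CerM than in vehicle hippocampus, although none of them passed the test and the list was not tested as a set. Of the 78 members, 71 (91.0%) had a log2 fold change below 0, against 41.2% of all 14916 tested genes. The median was −0.14 for the members and 0.03 for all tested genes. In the large subunit 45 of 49 members lay below 0, with a median of −0.13. In the small subunit 26 of 29 lay below 0, with a median of −0.16. A fold change sets CerM over vehicle as a difference of log2(TPM + 1), which understates differences of genes at low levels.

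No member passed the test on its own. Limma, run across all tested genes with Benjamini-Hochberg adjustment, called 0 members and 0 of the 14916 genes (0%) at the threshold of 0.05, and no member had an adjusted p under 0.989. Before adjustment, p was below 0.05 for 8 members and for 2.7% of all tested genes. All 8 members were lower, against 1.62% of all tested genes, and 0 were higher, against 1.07%. The 8 became 4 without CerM replicate 3, 5 without vehicle replicate 2 and 12 without CerM replicate 2. In that order, 269 of 14858, 293 of 14948 and 536 of 14837 tested genes had such a p, against 402 with all libraries. The values of both groups did not overlap, with CerM lower, in 22 members (28.2%), against 4.04% of all tested genes, and with CerM higher in 0 members, against 3.26%. Of those 22, 15 are named for the large and 7 for the small subunit. For 68 of the 78 members, 41 large and 27 small, the 95% confidence interval lay within a 1.5-fold difference in either direction, as it did for 9506 of the 14916 tested genes.

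**Figure D1:**
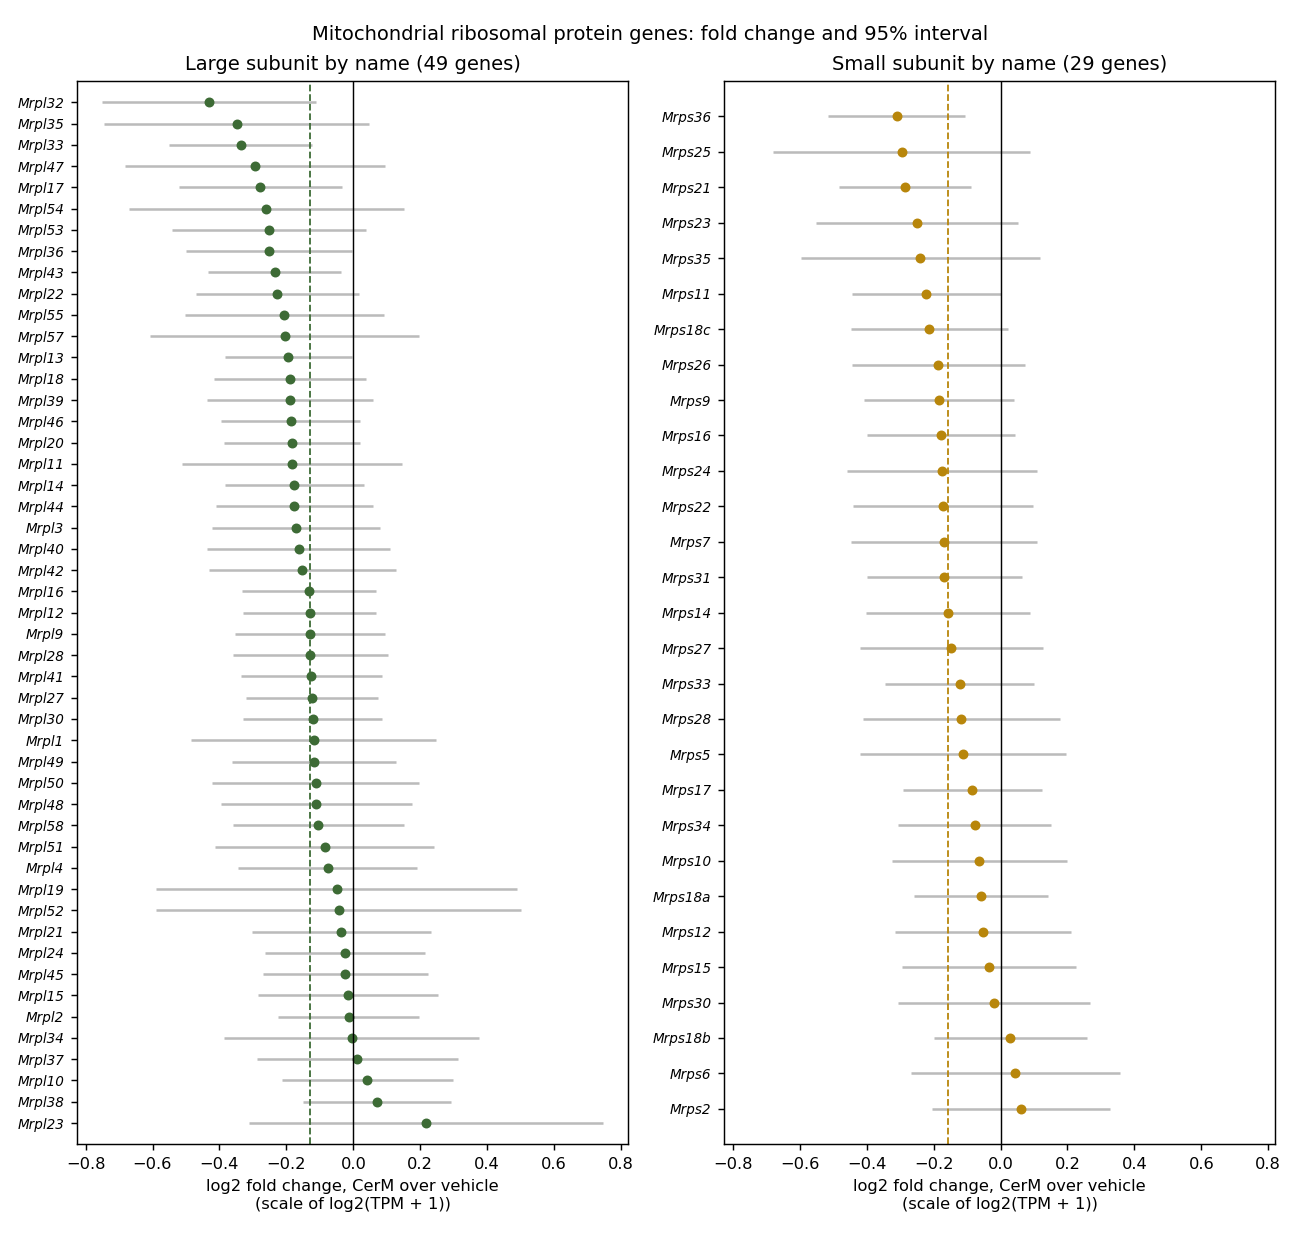
Log2 fold change of each member, CerM over vehicle, from log2(TPM + 1) (points) with its 95% confidence interval from limma (grey lines), for the 49 large subunit members (left) and the 29 small subunit members (right), ordered from lowest to highest. Dashed lines mark the medians of −0.13 and −0.16, and most points lie left of 0 while most intervals cross it.

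In TPM summed over the members, CerM libraries 1 to 3 had 4495, 4444 and 4275, against 4963, 4921 and 4772 in vehicle libraries 1 to 3. The groups did not overlap, and the mean of CerM (4405 ± 115, SD, n = 3) was 90.2% of the mean of vehicle (4885 ± 100.5). Large subunit members summed to 2765 ± 73.8 TPM in CerM and 3055 ± 56.0 TPM in vehicle, or 90.5%. Small subunit members summed to 1640 ± 49.0 TPM in CerM and 1830 ± 45.0 TPM in vehicle, or 89.6%. In bulk tissue, fewer cells that express these genes and less of their RNA per cell cannot be told apart.

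The balance between the subunits was compared within each library. The summed TPM of the large subunit was 1.69 ± 0.034 times that of the small subunit in CerM and 1.67 ± 0.013 times in vehicle (SD, n = 3 each). The ratios of single libraries were 1.71, 1.65 and 1.70 in CerM and 1.67, 1.66 and 1.68 in vehicle, so the groups overlapped. The median log2 fold change of the large subunit minus that of the small subunit was 0.026. It had no stable sign. It was −0.012 without CerM replicate 1, −0.018 without CerM replicate 3 and −0.011 without vehicle replicate 2, and 0.067 with sample weights. Genes were also centred on their average of 6 libraries, and the subunit medians were subtracted within each library. This centred difference averaged −0.0085 over the CerM libraries and −0.0073 over the vehicle libraries, with a within-group SD of 0.028. That SD describes single libraries and another quantity, so it gives no error for the 0.026. The difference between the subunits was not tested.

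**Figure D2:**
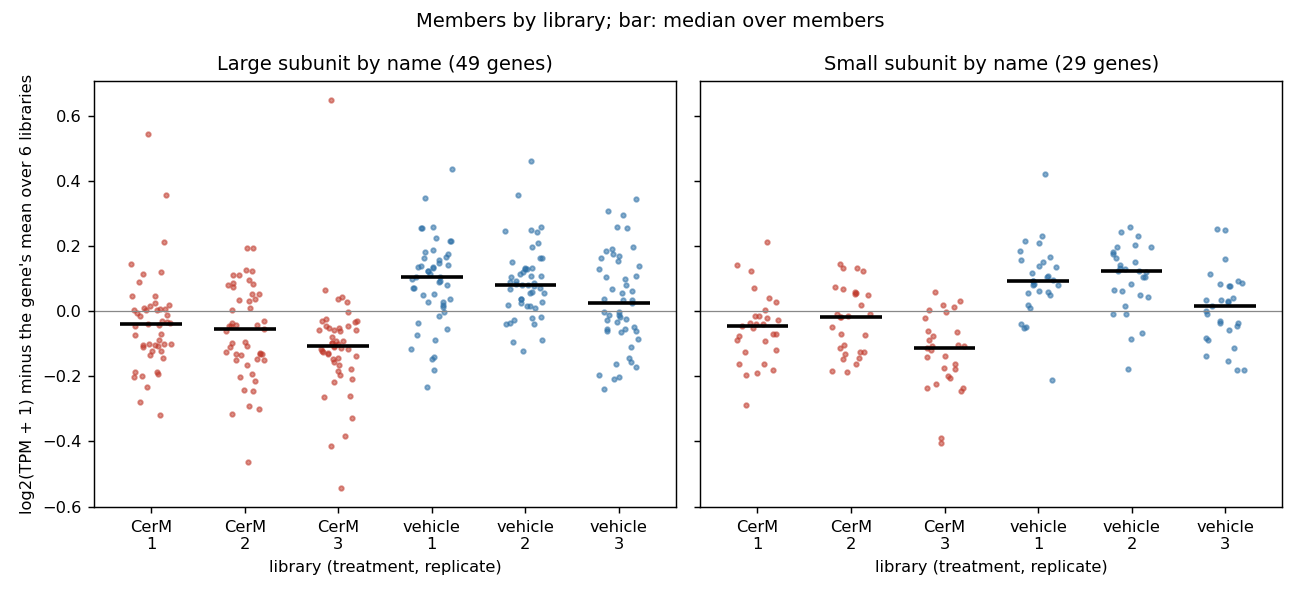
Level of every member in each library as log2(TPM + 1), centred on each gene's average of 6 libraries (points), for the large subunit (left) and the small subunit (right), with the median over members as a bar. All 3 CerM medians lie below 0 and all 3 vehicle medians above 0 in both subunits, with CerM replicate 3 lowest and vehicle replicate 3 closest to 0 among the vehicle libraries.

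Counting Mrps30 and Mrps18a with the large subunit and leaving out Mrps36 hardly changed the contrast, with medians of −0.13 over 51 large and −0.16 over 26 small subunit genes. The members were also divided into proteins with a bacterial counterpart and proteins that mitochondria added. Mrps18a and Mrps18b, although relatives of bacterial S18, were counted with the added ones. In the large subunit the medians were −0.13 for 30 genes with a bacterial counterpart, of which 28 lay below 0, and −0.12 for 21 added ones, of which 19 lay below 0. In the small subunit they were −0.14 (14 of 16 below 0) and −0.17 (9 of 10). The groups did not overlap, with CerM lower, in 11 of the 30 and 4 of the 21 large subunit genes. In the small subunit this held for 4 of the 16 and 2 of the 10, and over all tested genes for 4.04%. Unadjusted p was below 0.05 for 5 of the 30 and 1 of the 21, and for 1 of the 16 and 0 of the 10. Of all tested genes, 2.7% had such a p. The difference between proteins of either origin was not tested.

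Among large subunit members, Mrpl33 had the smallest p. It had 81.9, 82.1 and 88.0 TPM in CerM libraries 1 to 3, against 97.7, 108.6 and 113.3 TPM in vehicle libraries 1 to 3. All CerM values were below all vehicle values, and the log2 fold change was −0.34 ± 0.09 (SE). Limma gave it an adjusted p of 0.989. Mrpl33 is the counterpart of bacterial L33, one of the smallest proteins of the particle.

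Mrpl32 had the lowest log2 fold change of all members, −0.43 ± 0.14 (SE). Its protein is cut to its mature form by the m-AAA protease of the inner membrane before it enters the large subunit. It had 25.5, 26.2 and 28.5 TPM in CerM, against 40.0, 40.2 and 30.0 TPM in vehicle. The groups did not overlap, but vehicle replicate 3 lay much closer to the CerM libraries than to the other vehicle libraries. Without vehicle replicate 3 the log2 fold change was −0.57, and without vehicle replicate 1 it was −0.37.

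Mrpl43, a protein of the large subunit with no bacterial counterpart, was the tightest of these genes. It had 36.2, 35.9 and 35.1 TPM in CerM, against 42.9, 42.7 and 41.2 TPM in vehicle. The log2 fold change was −0.23 ± 0.08 (SE). Its exons overlap those of Twnk, the gene of the mitochondrial DNA helicase, on the opposite strand. The labels do not state whether reads were counted by strand, so the values of such pairs are uncertain. In all, 23 of the 78 members have an overlapping or near-identical gene with a mean of at least 1 TPM.

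Mrpl17, the counterpart of bacterial L17, had 64.9, 53.5 and 55.5 TPM in CerM and 72.7, 66.2 and 72.1 TPM in vehicle. Mrpl36, the counterpart of the very small bacterial L36, had 43.4, 44.3 and 37.9 TPM in CerM and 46.9, 54.3 and 49.0 TPM in vehicle. Mrpl13, the counterpart of bacterial L13, had 57.6, 56.3 and 59.4 TPM in CerM and 66.6, 67.7 and 64.4 TPM in vehicle. None of the 3 overlapped between the groups, although Mrpl17 came close (64.9 against 66.2 TPM). Their log2 fold changes were −0.28, −0.25 and −0.19 in that order. Exons of Mrpl36 overlap those of Ndufs6 by 30 bases, and exons of Mrpl13 those of Mtbp by 330 bases, each on the opposite strand.

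The stalk of the large subunit, which draws translation factors to the ribosome, gave a mixed picture. Mrpl12, the stalk protein itself, had 73.5, 75.9 and 74.9 TPM in CerM, against 85.9, 83.3 and 76.8 TPM in vehicle. Its groups did not overlap, and its log2 fold change was −0.13 ± 0.08 (SE). Mrpl10, which anchors the stalk, had 59.1, 68.4 and 55.04 TPM in CerM and 54.98, 60.4 and 61.3 TPM in vehicle. Its groups overlapped, and the 95% interval of its log2 fold change of 0.04 ran from −0.21 to 0.30. Mrpl58, which is built into the large subunit and as a free enzyme can release peptides from stalled ribosomes, had 90.7, 87.6 and 83.6 TPM in CerM and 81.6, 98.5 and 103.1 TPM in vehicle, also overlapping.

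Above 0 in the large subunit were Mrpl23, Mrpl38, Mrpl10 and Mrpl37. Mrpl38, a protein of the central protuberance, had 49.2, 48.2 and 42.5 TPM in CerM and 43.6, 44.6 and 44.6 TPM in vehicle (log2 fold change 0.07, 95% confidence interval −0.15 to 0.29). Mrpl23, which lies at the exit of the peptide tunnel, had the highest log2 fold change of all members, 0.22 ± 0.23 (SE). It had 12.8, 13.4 and 23.7 TPM in CerM and 14.7, 13.5 and 12.7 TPM in vehicle. CerM replicate 3 stood far above the other 5 libraries, and without it the log2 fold change was −0.052.

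The direction of Mrpl23 also turned with its pseudogene. Mrpl23-ps1, a processed pseudogene whose transcript matches that of Mrpl23 at 100% identity over 540 bases, is listed at 102, 114 and 86.9 TPM in CerM and 125, 132 and 131 TPM in vehicle. The table thus gives most of the signal of this sequence to the pseudogene, and how reads were shared between both is unknown. Gene and pseudogene together had 115, 127 and 111 TPM in CerM, against 139, 145 and 144 TPM in vehicle. These sums did not overlap between the groups, with CerM lower, whereas the gene alone overlapped. Mrps33 has a similar copy, Gm5776 (99.7% identity over 321 bases). With Gm5776 added, Mrps33 had 161, 155 and 164 TPM in CerM and 181, 186 and 168 TPM in vehicle, and without it 142, 135 and 147 against 158, 165 and 138 TPM.

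**Figure D3:**
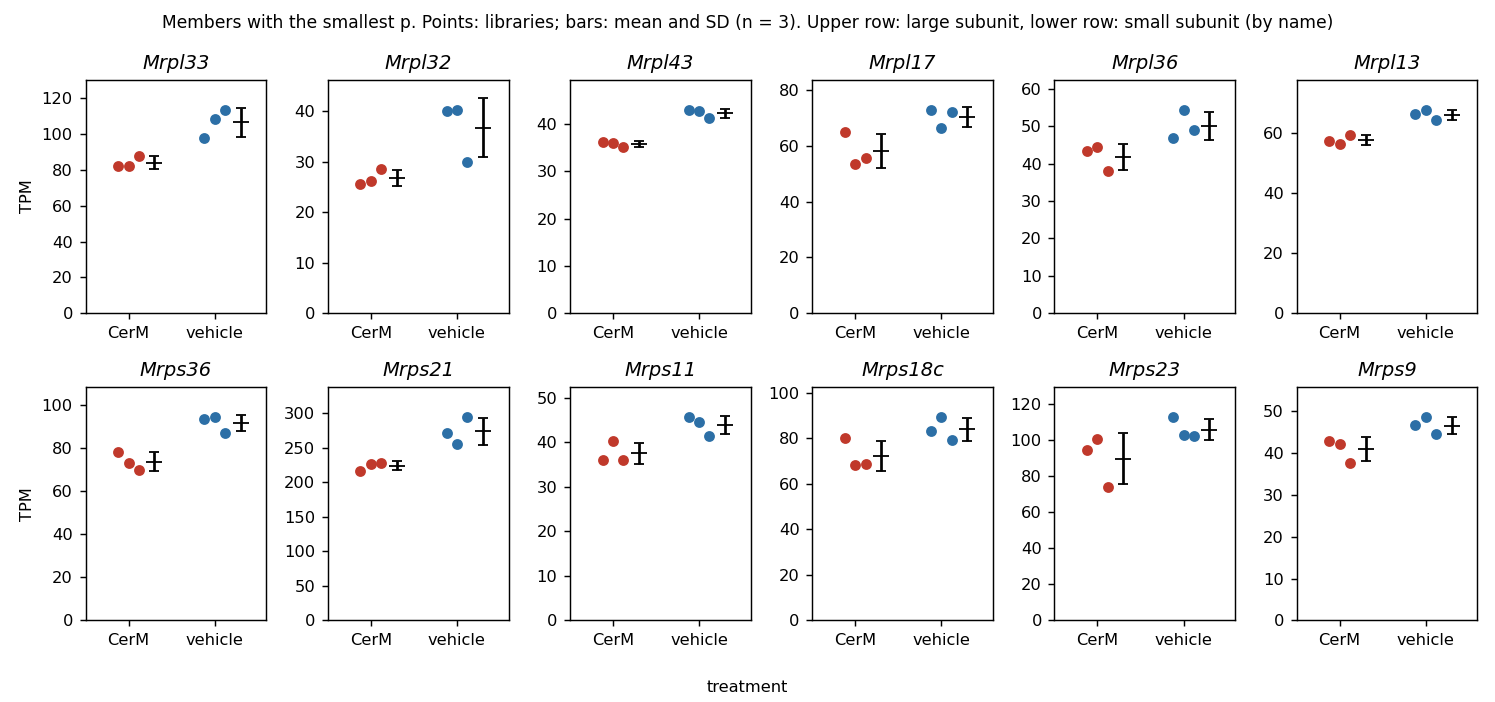
TPM in each library (points) with the mean and SD of 3 libraries (bars) for the 6 large subunit members (upper row) and the 6 small subunit members (lower row) with the smallest p, CerM left and vehicle right, on axes that start at 0. The groups do not overlap in 11 of the 12 genes, while Mrps18c overlaps between CerM replicate 1 (80.0 TPM) and vehicle replicate 3 (79.4 TPM). Choice by smallest p favours genes without overlap, which with CerM lower make up 22 of all 78 members and 4.04% of all tested genes.

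Among genes named for the small subunit, the smallest p belonged to Mrps36. It had 78.3, 73.4 and 69.7 TPM in CerM, against 93.5, 94.4 and 87.2 TPM in vehicle. The groups did not overlap, and the log2 fold change was −0.31 ± 0.09 (SE). Limma gave it an adjusted p of 0.989. As given above, its protein belongs to a citric acid cycle enzyme and not to the ribosome. Mrps21, with its values given above, came next at −0.29 ± 0.08, and its groups did not overlap.

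Mrps11, which lies near the mRNA exit of the small subunit, had 36.2, 40.3 and 36.1 TPM in CerM and 45.6, 44.5 and 41.6 TPM in vehicle. Mrpl46, a large subunit gene, starts next to it on the other strand: their promoter windows share 141 bases and their annotated exons 173 bases. Mrpl46 had 36.0, 35.7 and 38.6 TPM in CerM and 43.5, 41.3 and 41.2 TPM in vehicle. Neither gene of the pair overlapped between the groups, at log2 fold changes of −0.22 for Mrps11 and −0.19 for Mrpl46. Because their exons overlap, both values may share reads. It was the one pair of members whose promoter windows overlapped.

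Mrps23, a protein that mitochondria added, had 94.4, 101 and 73.9 TPM in CerM and 113, 103 and 102 TPM in vehicle. Mrps9, the counterpart of bacterial S9, had 42.8, 42.0 and 37.6 TPM in CerM and 46.5, 48.4 and 44.3 TPM in vehicle. Both had groups that did not overlap, at log2 fold changes of −0.25 and −0.18. In Mrps23 the groups lay within 2 TPM of each other at their nearest values, and without CerM replicate 3 its log2 fold change was −0.12.

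The 3 relatives of bacterial S18 differed in their values. Mrps18c, the form in the small subunit at the place of S18, had 80.0, 68.2 and 68.8 TPM in CerM and 83.0, 89.2 and 79.4 TPM in vehicle, a log2 fold change of −0.21 ± 0.10 (SE). Mrps18a, the form in the large subunit, had 93.3, 103 and 92.1 TPM in CerM and 104, 97.4 and 99.1 TPM in vehicle, at −0.06 ± 0.09. Mrps18b, the second form in the small subunit, had 49.1, 54.2 and 47.5 TPM in CerM and 52.7, 47.3 and 47.6 TPM in vehicle, at 0.03 ± 0.10. All 3 overlapped between the groups, and the difference between the paralogs was not tested.

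Above 0 in the small subunit were Mrps2, Mrps6 and Mrps18b. Mrps2, the counterpart of bacterial S2, had 29.0, 29.6 and 28.7 TPM in CerM and 24.4, 31.1 and 28.5 TPM in vehicle (log2 fold change 0.06, 95% confidence interval −0.20 to 0.33). Mrps6 had 53.0, 41.0 and 45.6 TPM in CerM and 44.0, 40.2 and 51.0 TPM in vehicle, and its exons overlap those of Slc5a3 on the same strand. Mrps12, which forms part of the decoding centre, had 91.9, 85.4 and 72.1 TPM in CerM and 81.2, 85.2 and 91.2 TPM in vehicle, with groups that overlapped widely. Mrps22, the lowest member that is a true small subunit protein, had 21.8, 20.4 and 23.7 TPM in CerM and 24.4, 27.5 and 22.8 TPM in vehicle. Mrps30 had 9.38, 9.29 and 9.20 TPM in CerM and 10.2, 9.72 and 8.41 TPM in vehicle.

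The 3 most abundant large subunit genes lay below 0 with unadjusted p above 0.05. Mrpl20 had 157, 146 and 140 TPM in CerM and 174, 172 and 157 TPM in vehicle, and its groups met without overlap (156.7 and 157.1 TPM). Mrpl30 had 144, 133 and 147 TPM in CerM and 164, 153 and 144 TPM in vehicle. Mrpl42 had 171, 133 and 170 TPM in CerM and 185, 174 and 164 TPM in vehicle. Both of these overlapped, and CerM replicate 2 was the lowest library for each.

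Replicates of one treatment usually lay close together. The coefficient of variation between the 3 libraries of a group had a median over members of 7.94% in CerM and 7.5% in vehicle for the large subunit, and of 7.37% in CerM and 7.15% in vehicle for the small subunit. The widest was that of Mrpl52, at 37.1% in CerM, where replicate 1 had 123 TPM and replicates 2 and 3 had 73.4 and 62.8 TPM. The median member stood at 91.1% of its vehicle level in CerM in the large and at 89.6% in the small subunit. For single genes, the typical difference between treatment means was only slightly larger than the typical SD of single libraries within a group. That SD is not the error of a mean of 3 libraries or of a difference between means.

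Genes around the mitochondrial ribosome were not all displaced in the same way. Of the 5 ribosomal proteins without an Mrp name, 4 lay below 0, and their median was −0.12 on the log2 scale. Chchd1, a small subunit protein, had 81.2, 77.2 and 82.7 TPM in CerM, against 107, 96.5 and 86.9 TPM in vehicle (−0.26 ± 0.10, SE). Aurkaip1, another small subunit protein, had 88.5, 94.0 and 85.7 TPM in CerM, against 101, 103 and 107 TPM in vehicle (−0.21 ± 0.08). Neither overlapped between the groups. Dap3, the GTP-binding protein of the small subunit, was at −0.04, Gadd45gip1, at the tunnel exit of the large subunit, at −0.12, and Ptcd3, a pentatricopeptide repeat protein of the small subunit, at 0.08, each with overlapping groups.

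Of 12 factors for initiation, elongation, release and rescue, 9 lay below 0, with a median of −0.06. Mtres1, which takes part in the rescue of stalled mitochondrial ribosomes, had the smallest p, at 45.2, 38.2 and 41.8 TPM in CerM and 57.1, 48.7 and 47.0 TPM in vehicle. Tufm, the elongation factor that delivers tRNA, had 69.6, 81.0 and 64.3 TPM in CerM and 75.4, 69.3 and 72.4 TPM in vehicle. Its groups overlapped, at a log2 fold change of −0.020.

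Genes for ribosome assembly and for modification of its RNA centred near the median of all genes. Of 26 such genes 10 lay below 0 and 16 above it, with a median of 0.04. Trmt61b, a methyltransferase of mitochondrial RNA, had the smallest p and lay below 0, at 12.4, 12.6 and 12.8 TPM in CerM and 17.1, 15.3 and 14.6 TPM in vehicle. Of 12 genes for the stability of mitochondrial mRNA and for insertion of new proteins into the inner membrane, 3 lay below 0 (median 0.03). Among them Taco1, a translational activator of cytochrome c oxidase subunit I, had the smallest p, at 15.4, 19.0 and 17.0 TPM in CerM and 14.6, 14.7 and 16.4 TPM in vehicle. Limma called 0 genes of these lists, with every adjusted p at 0.989 or above. At an unadjusted p below 0.05 and lower in CerM were 2 of the 5 ribosomal proteins without an Mrp name and 1 of the 12 translation factors. The same held for 1 of the 26 assembly genes, 0 of the 12 genes of mRNA stability and insertion, and 1.62% of all tested genes. None of these lists had a gene that was higher at that p. The difference between these lists and the members was not tested.

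Both mitochondrial ribosomal RNAs varied more between libraries than between treatments. mt-Rnr1, the small subunit RNA, had 6621, 4382 and 3835 TPM in CerM and 7164, 5629 and 4049 TPM in vehicle. mt-Rnr2, the large subunit RNA, had 4825, 3474 and 2813 TPM in CerM and 5094, 4236 and 2893 TPM in vehicle. In both groups replicate 1 was highest and replicate 3 lowest, for both RNAs.

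**Figure D4:**
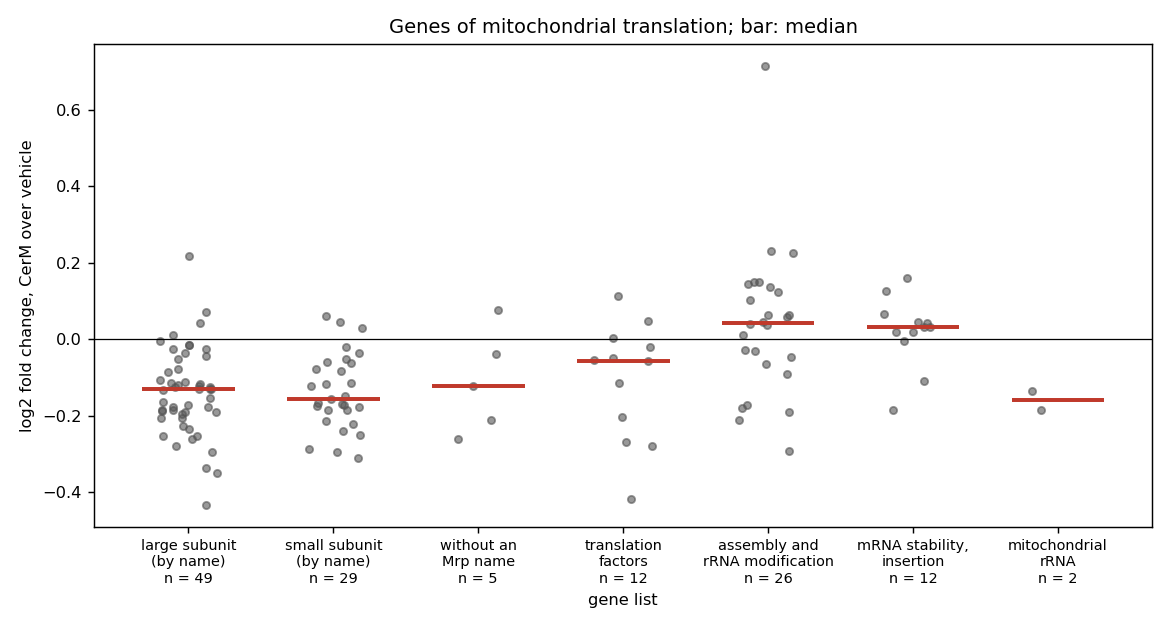
Log2 fold change of each tested gene, CerM over vehicle, from log2(TPM + 1) (points) with the median of each list (bars) for genes of mitochondrial translation. Large and small subunit members centre at −0.13 and −0.16, whereas genes for assembly and for mRNA stability and insertion centre at 0.04 and 0.03.

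The libraries also differed in markers of cell types and regions. TPM totals were 993379 to 995403 per library, and sequencing depth is unknown. Summed markers of neocortex were at 267 TPM in vehicle replicate 1 and 110 to 116 TPM elsewhere, and hippocampal markers at 272 TPM there against 367 to 438 TPM elsewhere. Adipocyte markers reached 626 TPM in CerM replicate 3 and at most 1.33 TPM in the other 5 libraries, with Cfd at 0 in all 5. Choroid plexus markers summed to 9268, 304 and 10909 TPM in CerM libraries 1 to 3 and to 252, 260 and 15661 TPM in vehicle libraries 1 to 3. Neuron markers summed to 3050, 3059 and 3104 TPM in CerM and 3929, 3282 and 3135 TPM in vehicle, and did not overlap. All 5 neuron markers were detected in every library. Each of them alone overlapped between the groups, and 3 of the 5 averaged lower in CerM, while Rbfox3 and Map2 averaged higher. Snap25, the largest part of the sum, had 1854, 1655 and 1903 TPM in CerM and 2548, 2016 and 1848 TPM in vehicle. Oligodendrocyte markers were lowest in vehicle replicate 1, at 3628 TPM against 5554 to 6570 TPM elsewhere.

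Vehicle replicate 1, with the highest sums of neuron and neocortex markers, was the library with the highest value for 32 of the 78 members. CerM replicate 3, with 626 TPM of adipocyte markers, was that with the lowest value for 28. Its neuron markers summed to 3104 TPM, the highest of the CerM libraries. The part of neurons, neocortex or fat in the members' difference was not tested. With both of those libraries left out, 36 of 49 large and 24 of 29 small subunit members lay below 0. The medians were −0.10 and −0.085, against 0.021 for all 14884 genes tested. An unadjusted p below 0.05 was then found for 1 of 78 members and for 243 of those genes. Among the libraries rich in choroid plexus transcripts, the members summed to 4495 and 4275 TPM in CerM and 4772 TPM in vehicle, and among the others to 4444 TPM in CerM and 4963 and 4921 TPM in vehicle. Each of these kinds has 1 library in one of the treatments, so the part of choroid plexus cannot be judged from them.

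Fold changes of all tested genes also varied with transcript length. Members are short, with a median length of 1052 bases against 2072 bases for all tested genes. At 500 to 1000 bases the median log2 fold change was −0.12 for 32 members and −0.024 for 2608 other genes. At 1000 to 2000 bases it was −0.14 for 24 members and 0.0006 for 3919 other genes, and at 2000 to 4000 bases −0.17 for 15 members and 0.048 for 5166 other genes. Up to 500 bases it was −0.24 for 4 members and 0.012 for 557 other genes, and above 4000 bases −0.19 for 3 members and 0.090 for 2525 other genes. The part of length in the members' difference was not tested. Of the 9244 other tested genes within the members' range of levels, 42.9% lay below 0, with a median of 0.02.

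**Figure D5:**
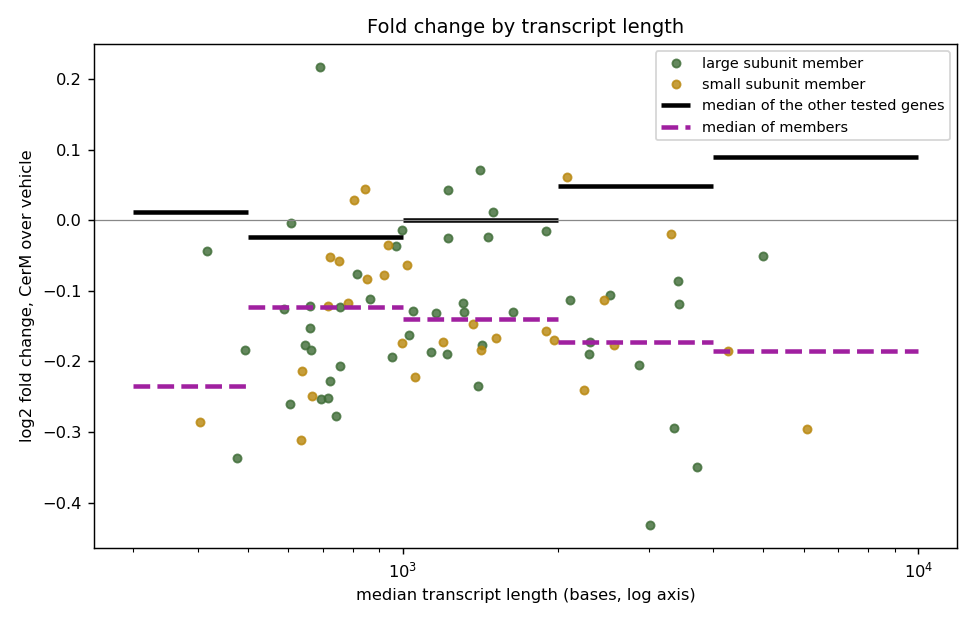
Log2 fold change of the members, CerM over vehicle, from log2(TPM + 1) against their transcript length on a log axis (points), with medians per length class for the members (dashed) and for the other tested genes (solid); the outer classes are open-ended. The dashed lines lie below the solid ones in every class, with 4 and 3 members in the outer classes.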

How the data were processed

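The authors deposited 1 table of TPM values with 2 decimals for 6 libraries and 55414 genes, and its columns were matched to samples by their titles. Per the submitters' processing notes, the tools were HISAT2, StringTie and RSEM and the build GRCm39, with no role or version given. TPM does not keep depth, so only the spread between libraries gives precision. Genes with a mean of at least 1 TPM (14916) were tested with limma 3.58.1 in R 4.3.3 on log2(TPM + 1) with a variance trend, two-sided, with Benjamini-Hochberg adjustment over all of them and a threshold of 0.05. The test was checked on simulated data. Errors are SEs of the fit or SDs over libraries.

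Members, gene lists and tests were chosen with earlier results of these data known, so no list was tested as a set. Named genes are, per subunit, the 6 with the smallest p, the 2 with the highest fold change, the 3 with the highest and 2 with the lowest levels, genes named for their role, and per list the gene with the smallest p. Mrpl37, Mrpl46, Mrpl52 and Tufm were named after their values were seen.

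Transcript lengths, exon overlaps and copies came from GENCODE M21, an older build than GRCm39. The median length of a gene's protein-coding transcripts was used, and 99.6% of tested genes had one. Copies were sought with blastn 2.17.0 (at least 95% identity over 200 bases and 50% of the shorter transcript). Overlapping genes and copies were counted only at a mean of at least 1 TPM. Promoters came from RefSeq (GRCm38.p6). Python 3.11.15 with pandas 2.3.3 and matplotlib 3.10.9 was used.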

Additional observations from a re-analysis of the deposited data

How the results depend on the processing

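Alternatives were pseudocounts of 0.1 and 0.5, no TPM minimum and one of 5, quantile and median-ratio scaling, TPM without genes of mitochondrial DNA, no variance trend, sample weights, a replicate block, each library left out, and subunits by structure. Leaving out CerM replicate 3 and vehicle replicate 1 together, and restriction to 55 members without an overlapping or near-identical gene, were chosen after seeing the data. No alternative called a member. Genes called numbered 1 to 8 with 1 library left out and 1 with both left out, against 0. Both subunit medians stayed below 0 throughout: −0.168 to −0.116 (large) and −0.199 to −0.114 (small) with 1 library left out. The small subunit median was −0.215 with sample weights and −0.085 with both left out. Large minus small ran from −0.018 to 0.032 with 1 library left out, and was 0.067 with sample weights and −0.018 with both left out. Without overlapping genes the medians were −0.13 and −0.15. The summed difference of −481 TPM was −591 with median-ratio scaling. Members lower at an unadjusted p below 0.05 numbered 8, from 1 with both left out to 42 with sample weights. With sample weights 1 member was higher at that p, and 2696 of all 14916 genes passed in either direction.

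Some log2 fold changes near 0 changed sign. Mrps18b was −0.0057 with median-ratio scaling. With sample weights Mrps2 was −0.068 and Mrpl10 −0.069. With 1 library left out, the lowest and highest were −0.051 and 0.136 for Mrps6, −0.026 and 0.078 for Mrps18b, −0.044 and 0.110 for Mrpl10, −0.052 and 0.367 for Mrpl23, −0.128 and 0.046 for Mrps12, −0.030 and 0.137 for Mrps2, −0.093 and 0.035 for Mrps30 and −0.415 and 0.011 for mt-Rnr1. With both left out Mrps2 was −0.020, Mrps30 0.041, Mrps12 0.0064 and mt-Rnr1 0.174. The causes were not tested.

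The replicate numbers were not taken to pair the libraries, since deviations of same-numbered libraries correlated at 0.0083, 0.20 and 0.22 and vehicle replicate 1 correlated best with CerM replicate 2. With the replicate block 0 genes were called. An unadjusted p below 0.05 was then found for 5 members and 496 of all 14916 tested genes, against 8 members and 402 genes without the block.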
